A study of Mus musculus with 48 samples.

Results

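Joints that had been loaded and given a nanoparticle with a negative control siRNA were compared with healthy joints on the nCounter inflammation panel for mouse, version 2. Small interfering RNA (siRNA) silences a matching transcript, and a negative control siRNA is designed to match none. Members were chosen by sample title: 12 samples of the negative control siRNA group (siNEG) and 12 healthy samples, 24 of the 48 samples in the series. The siNEG knees belonged to male C57BL/6 mice labelled 3 months old. Their knees had been put through repeated compressive loading, an injury model of post-traumatic osteoarthritis, with 500 cycles at 9 N on 5 days per week for 4 weeks, begun at 8 weeks of age. They also received polymer nanoparticles conjugated to antibodies against type II collagen, the main collagen of cartilage, with the control siRNA inside. The healthy knees came from males of that strain and age that were neither loaded nor treated. The series also holds loaded joints titled as treated with MMP13 siRNA (siMMP13) and loaded joints titled as untreated, 12 samples each. Both groups entered the shared estimate of the spread and are set beside the siNEG values where stated. Loading and particle injection differ together between siNEG and healthy joints, so their effects cannot be told apart in this comparison. Whether each group's 12 samples stand for 12 animals is not stated in the labels, so a p-value here reflects variation among samples that may be technical.

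Joint inflammation after mechanical injury involves synovial fibroblasts and macrophages that release chemokines, the secreted proteins that draw leukocytes into tissue. Type I interferons act through STAT2 and interferon regulatory factors to switch on antiviral effector genes. Prostaglandins made by cyclooxygenase-2 contribute to joint pain, and metalloproteinases such as stromelysin-1 (Mmp3) cut matrix proteins.

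Probe counts per sample summed to between 44738 and 187825 in siNEG joints (median 116985) and between 36415 and 217805 in healthy joints (median 113746.5). Of 248 endogenous genes, 196 had over 20 counts in at least 12 of the 48 samples and were tested. Counts were divided by a factor for each sample, formed from the geometric mean of 6 housekeeping genes, and the scaled values are called normalized counts. In every pair of values the 3 figures for a group are the lowest, the median and the highest of its 12 samples. The panel holds no probe analysed here that defines cartilage, bone or synovial lining, so the tissue label was not checked against such markers.

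Loaded siNEG joints had higher levels of monocyte-attracting chemokines, interferon-induced genes, Mmp3, the cyclooxygenase-2 gene Ptgs2 and the small heat shock protein gene Hspb1. They had lower levels of several genes of macrophages, lymphocytes and granulocytes. By the quasi-likelihood test of edgeR, 98 of the 196 genes differed at an adjusted p under 0.05, which is 50% of those tested. Of these, 74 were higher (37.8%) and 24 lower (12.2%). Counts of called genes by list, given below, are to be read beside these shares. A fitted log2 change of at least 1 was reached by 37 of the higher genes and by 1 lower gene, Retnla. Of the 37, 29 were above the negative control probes in more than 6 of 12 healthy samples. For the other 8 the fitted value is no measured fold, and 3 of the 8 had a bound of at least 2-fold (Arg1, Masp1 and Ptgs2). The median log2 fold change over all 196 genes was 0.20. Samples of the 2 groups did not overlap at all for 6 genes (3.06%), namely Ifi44, Iigp1, Masp1, Oas1a, Oas2 and Tgfb3, each with every siNEG sample above every healthy one.

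**Figure D1:**
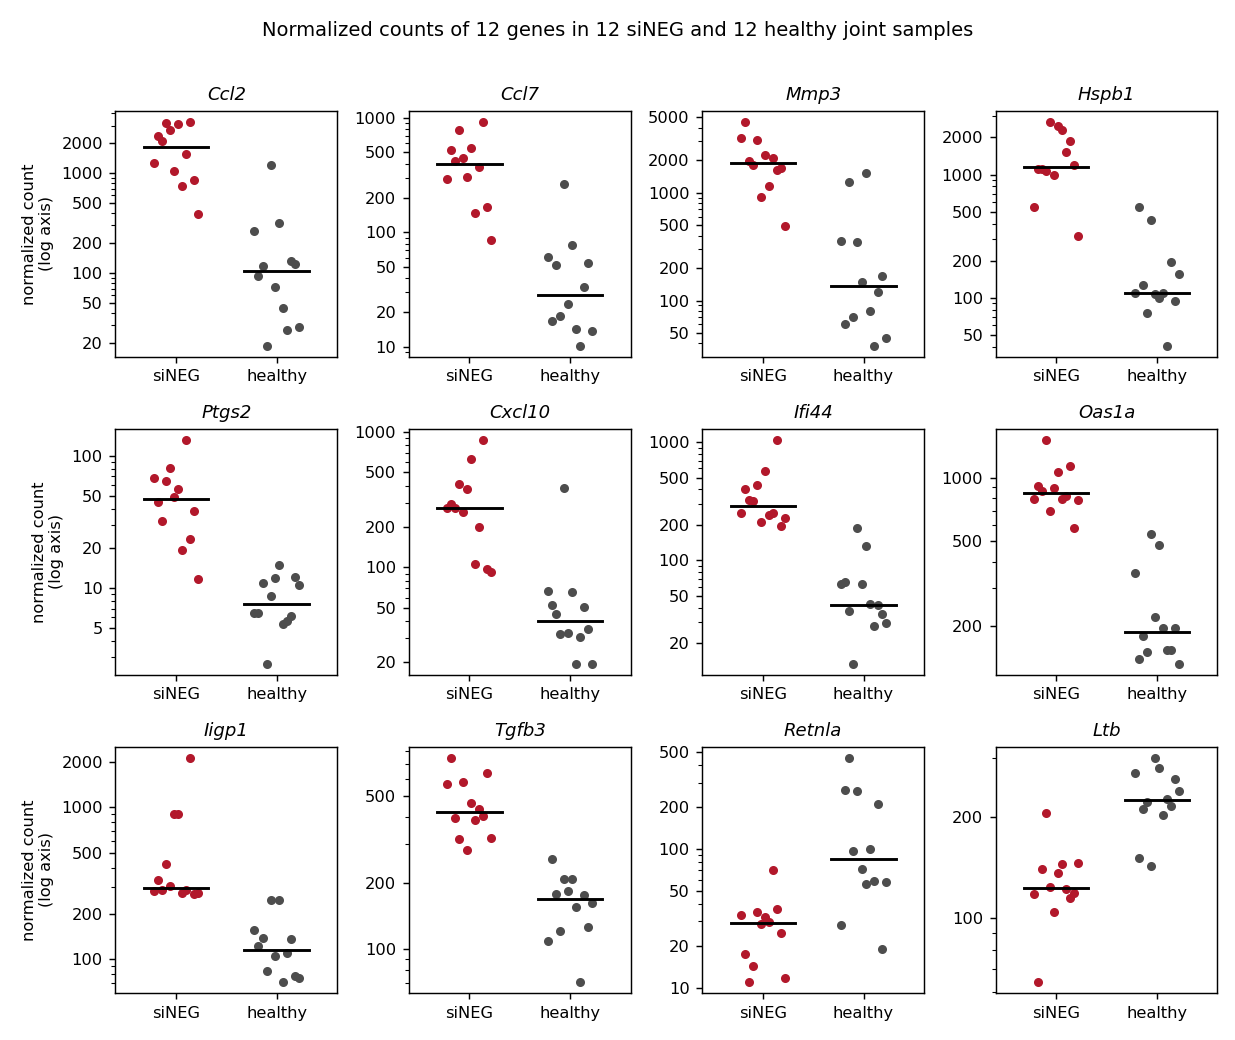
Normalized counts (log axis) of 12 genes, with 1 point per sample and a bar at the median of the 12 siNEG (left, red) and 12 healthy (right, grey) samples. For Ifi44, Oas1a, Iigp1 and Tgfb3 the lowest siNEG sample lies above the highest healthy one, while for Ccl2 and Cxcl10 a single healthy sample (replicate 5) lies within the siNEG range.

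All 6 monocyte-attracting CC chemokines tested rose, with a median log2 fold change of 1.81 against 0.20 for all genes. Ccl2, which encodes the main attractant of inflammatory monocytes, had 391, 1834 and 3250 normalized counts in siNEG joints, against 18.8, 105 and 1205 in healthy joints. All 12 siNEG samples lay above the healthy median and 8 above the highest healthy sample, which was replicate 5. The next healthy sample had 316 normalized counts. The fold for Ccl2 was 9.16 (3.19 ± 0.56 on the log2 scale, ± SE, adjusted p = 8.8e-06), and 16.6 without healthy replicate 5 (adjusted p = 3.4e-08). Ccl7, a close relative that binds the same receptor, had 85.7, 398 and 922 normalized counts in siNEG joints, against 10.2, 28.5 and 267 in healthy joints. Its fold was 7.56 (2.92 ± 0.48 on the log2 scale, adjusted p = 4.6e-06), and the log2 value was 3.59 without healthy replicate 5 (adjusted p = 3.4e-08). Within the siNEG group the lowest sample was replicate 12 and the highest replicate 10 for both genes.

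Ccl5, which attracts T cells and monocytes, had 302, 1001 and 2356 normalized counts in siNEG joints, against 126, 217 and 514 in healthy joints. Its log2 fold change was 1.90 ± 0.31 SE (adjusted p = 3.9e-05), and 8 siNEG samples exceeded every healthy one. Ccl8, another ligand of monocytes, rose by 1.73 ± 0.42, and Ccl3, which macrophages release, by 1.54 ± 0.26 on the log2 scale. Ccl4 was at least 1.45-fold higher (adjusted p = 0.0035), a bound because only 3 of 12 healthy samples lay above the negative control probes. The eosinophil attractant Ccl11 (eotaxin) rose by 1.21 ± 0.39 (adjusted p = 0.0029).

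All 6 CXC chemokines tested were also called higher. In 3 of them, Cxcl1, Cxcl2 and Cxcl3, at most 6 of 12 healthy samples lay above the negative control probes, so no list median of exact folds is given. With those 3 at their bound, or at 0 where none could be formed, the median log2 value was 0.72. Cxcl9 and Cxcl10 are induced by interferons and bind CXCR3 on activated T cells. Cxcl9 had 169, 308 and 814 normalized counts in siNEG joints, against 56.9, 112 and 209 in healthy joints, and 10 of 12 siNEG samples lay above every healthy sample. Its log2 fold change was 1.74 ± 0.27 SE (adjusted p = 4.1e-07). Cxcl10 had 92.2, 273 and 865 normalized counts in siNEG joints, against 19.6, 40.3 and 387 in healthy joints. Here 3 siNEG samples exceeded the highest healthy value, again that of replicate 5. The fold for Cxcl10 was 4.46 (2.16 ± 0.43 on the log2 scale, adjusted p = 0.00018), and 7.66 without that sample (adjusted p = 3.2e-07).

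The neutrophil attractants were dimmer. Cxcl5 rose by 1.19 ± 0.27 on the log2 scale (adjusted p = 0.00088), with every siNEG sample above the healthy median. Cxcl1 was at least 1.19-fold higher (adjusted p = 0.031), and leaving out any of 7 single samples ended that call, with an adjusted p of up to 0.064 without siNEG replicate 5. Cxcl2 lay above the negative control probes in 6 of 12 siNEG and 2 of 12 healthy samples, so no fold is given. The Cxcl2 call rested on siNEG replicate 9, at 215 normalized counts where the next siNEG sample had 30.0, and without it the adjusted p was 0.28. Cxcl3, for which no bound could be formed, also lost its call without siNEG replicate 9 (adjusted p = 0.16).

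Both lymphoid homing chemokines tested, which guide dendritic cells and T cells through CCR7, were called higher. Ccl21a had 873, 2038 and 4269 normalized counts in siNEG joints, against 130, 483 and 1047 in healthy joints. Of the siNEG samples 11 exceeded every healthy sample (log2 fold change 2.21 ± 0.35 SE, adjusted p = 7.5e-06). Ccl19 changed less (0.45 ± 0.18, adjusted p = 0.033), a call made under housekeeping scaling only that 7 single left-out samples ended, with an adjusted p of up to 0.091 without siNEG replicate 10. The receptors ran mostly the other way. Of 6 chemokine receptor genes tested, 4 fell and 1 rose, with a median log2 fold change of -0.43, where 12.2% of all genes were called lower. Ccr7 itself had 22.1, 31.5 and 40.7 normalized counts in siNEG joints, against 19.6, 53.4 and 67.9 in healthy joints, and all 12 siNEG samples lay below the healthy median (-0.68 ± 0.15, adjusted p = 0.00015). The eosinophil receptor gene Ccr3 (-0.57 ± 0.20) and Cxcr4, the receptor that retains leukocytes in bone marrow (-0.46 ± 0.12), each lay below the healthy median in 11 of 12 siNEG samples. With the muscle gene Myl2 as a covariate the Ccr3 call was lost (adjusted p = 0.060). The neutrophil receptor gene Cxcr2 (-0.40 ± 0.16) lay below the healthy median in 12 of 12. Ccr2, the receptor for Ccl2 and Ccl7, was called higher (0.37 ± 0.17, adjusted p = 0.047), a call made under housekeeping scaling only that 12 of 24 single left-out samples ended, with an adjusted p of up to 0.14 without siNEG replicate 2.

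**Figure D2:**
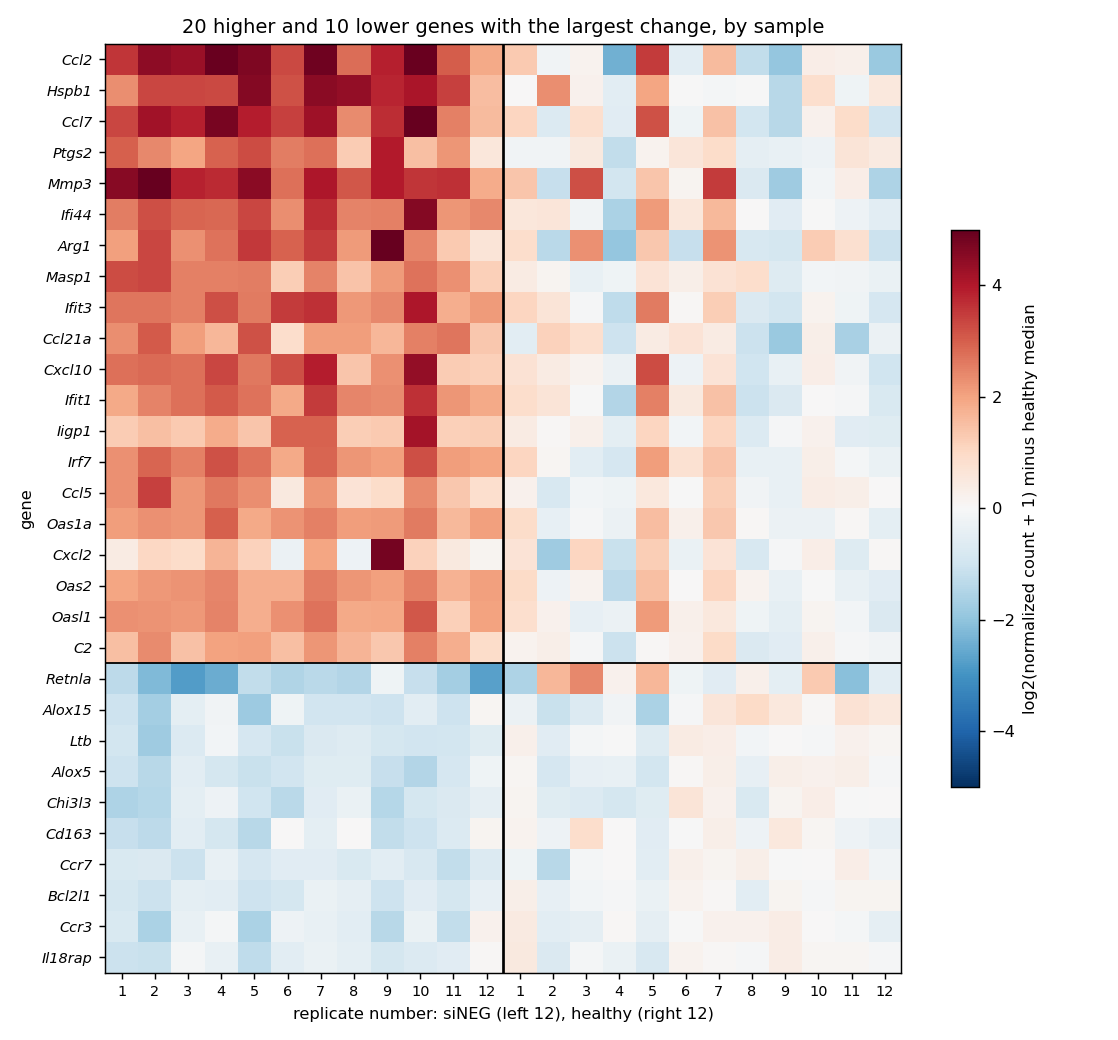
Colour gives log2(normalized count + 1) minus the healthy median for the 20 called genes with the largest increase and the 10 with the largest decrease (rows) in each siNEG (left 12 columns) and healthy (right 12 columns) sample. Healthy replicates 5 and 7 show raised chemokine and interferon genes among the healthy samples, and siNEG replicate 9 stands out for Arg1 and Cxcl2.

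Of 11 interferon-induced effector genes tested, 9 were called higher and none lower, where 37.8% of all genes were called higher. Their median log2 fold change was 1.87. Ifi44, an interferon-induced protein gene, had 197, 286 and 1040 normalized counts in siNEG joints, against 13.4, 42.4 and 189 in healthy joints. The groups did not overlap (log2 fold change 2.55 ± 0.35 SE, adjusted p = 5.6e-07). Oas1a and Oas2 encode synthetases that sense double-stranded RNA and activate RNase L. Oas1a had 577, 845 and 1506 normalized counts in siNEG joints, against 132, 187 and 544 in healthy joints (1.90 ± 0.23, adjusted p = 9.0e-09). Oas2 had 141, 182 and 244 normalized counts in siNEG joints, against 16.1, 41.0 and 117 in healthy joints (1.87 ± 0.24, adjusted p = 3.5e-08). Neither gene showed any overlap between the groups, and healthy replicate 5 was the highest healthy sample for both.

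The Ifit genes encode proteins that bind foreign RNA ends. Ifit3 had 903, 1625 and 4246 normalized counts in siNEG joints, against 107, 259 and 1593 in healthy joints. Healthy replicate 5 alone lay within the siNEG range, since the next healthy sample had 612 (2.33 ± 0.37, adjusted p = 1.3e-06). Ifit1 rose by 2.07 ± 0.37, Ifit2 by 1.54 ± 0.30 and Oasl1, a relative of the synthetases, by 1.84 ± 0.26 on the log2 scale. Iigp1, an immunity-related GTPase gene, had 268, 294 and 2103 normalized counts in siNEG joints, against 71.1, 116 and 247 in healthy joints. Most siNEG samples lay closer to the median, while replicates 6 and 7 had 903 and 909 and replicate 10 reached the maximum. The groups did not overlap (2.06 ± 0.33, adjusted p = 7.5e-06). Mx2 rose by 1.28 ± 0.21. Mx1 (0.67 ± 0.34, adjusted p = 0.092) and Ifi27l2a (0.50 ± 0.34, adjusted p = 0.27) did not pass.

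Signalling factors of the pathway were measured as well. Irf7, the regulator that amplifies type I interferon, had 730, 1056 and 1840 normalized counts in siNEG joints, against 110, 199 and 855 in healthy joints, with 8 siNEG samples above every healthy one (2.01 ± 0.29, adjusted p = 1.7e-06). Stat2, a signal transducer of type I interferon, rose by 0.83 ± 0.12, with all 12 siNEG samples above the healthy median. Irf1 was also called (0.46 ± 0.14, adjusted p = 0.033), a call made under housekeeping scaling only that 5 single left-out samples ended (adjusted p of up to 0.086 without siNEG replicate 10). Irf3 (-0.11 ± 0.25) and Irf5 (-0.19 ± 0.15) did not pass. The interferon genes Ifna1, Ifnb1 and Ifng themselves did not reach the count filter.

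Promoter windows of 4 of the genes that rose are shown because they hold the core letters of the interferon-stimulated response element, the DNA motif through which STAT2 and IRF9 are known to act. Windows run from 250 bases before to 50 bases after the start in the RefSeq annotation of GRCm38.p6. Capitals mark each match to GAAANNGAAA, or to its reverse complement TTTCNNTTTC, on the strand of the gene, and each line reads 5′ to 3′.
Ifit3, chr19:34583279-34583578, plus strand: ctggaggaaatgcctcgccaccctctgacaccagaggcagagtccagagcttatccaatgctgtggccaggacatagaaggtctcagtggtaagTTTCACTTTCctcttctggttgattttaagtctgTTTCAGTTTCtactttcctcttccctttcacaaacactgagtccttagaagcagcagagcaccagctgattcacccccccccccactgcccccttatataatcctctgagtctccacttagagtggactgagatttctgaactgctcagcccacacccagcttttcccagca
Ifit1, chr19:34640639-34640938, plus strand: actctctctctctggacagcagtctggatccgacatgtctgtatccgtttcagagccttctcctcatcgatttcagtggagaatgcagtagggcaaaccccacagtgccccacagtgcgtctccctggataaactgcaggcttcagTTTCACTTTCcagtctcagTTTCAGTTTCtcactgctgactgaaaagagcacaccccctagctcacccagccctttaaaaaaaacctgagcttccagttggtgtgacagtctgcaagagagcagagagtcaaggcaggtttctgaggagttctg
Oas1a, chr5:120907476-120907775, minus strand: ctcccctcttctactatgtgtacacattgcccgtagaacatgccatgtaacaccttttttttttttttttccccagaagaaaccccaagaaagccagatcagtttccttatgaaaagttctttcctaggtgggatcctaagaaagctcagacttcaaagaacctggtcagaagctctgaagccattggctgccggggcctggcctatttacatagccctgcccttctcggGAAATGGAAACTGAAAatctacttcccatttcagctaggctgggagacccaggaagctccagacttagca
Cxcl10, chr5:92348840-92349139, minus strand: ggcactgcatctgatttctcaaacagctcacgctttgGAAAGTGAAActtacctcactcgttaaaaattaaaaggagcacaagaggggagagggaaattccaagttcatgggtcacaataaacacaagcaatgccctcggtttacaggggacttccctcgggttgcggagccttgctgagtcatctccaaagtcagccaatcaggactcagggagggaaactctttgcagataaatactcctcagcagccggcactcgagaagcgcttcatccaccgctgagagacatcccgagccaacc
The first 3 windows hold 2 matches each, and the 2 in Oas1a overlap each other. Of the 11 effector genes, 6 had a window available and 3 of the 6 held a match, against 3.43% of all 32817 windows. The first count is by gene, where any window of the gene counts, and the second is by window, so the measures are unlike. The windows of Ifi44, Ifit2 and Oasl1 held none of these letters. A match is a description of the sequence and not a measured binding site.

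Both tested metalloproteinase genes were abundant, and only Mmp3 was called. Mmp3 had 487, 1895 and 4509 normalized counts in siNEG joints, against 38.2, 135 and 1518 in healthy joints. All 12 siNEG samples exceeded the healthy median and 9 exceeded every healthy sample, with healthy replicates 7 and 3 within the siNEG range (log2 fold change 2.55 ± 0.56 SE, adjusted p = 4.1e-05). Mmp9, the gelatinase stored by neutrophils, had 1982, 2788 and 4479 normalized counts in siNEG joints, against 1659, 3948 and 5045 in healthy joints, and did not pass (-0.34 ± 0.19, adjusted p = 0.13). Mmp13 had no probe analysed here.

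Of 3 hypoxia and small heat shock genes, 2 rose. Hspb1, which encodes the chaperone HSP27 homologue, had 316, 1151 and 2661 normalized counts in siNEG joints, against 41.0, 109 and 544 in healthy joints, and 11 siNEG samples exceeded every healthy one (log2 fold change 3.03 ± 0.39 SE, adjusted p = 1.0e-06). Hif1a, the oxygen-sensing transcription factor gene, rose by 1.19 ± 0.15 with 744, 1270 and 2026 normalized counts in siNEG joints, against 421, 561 and 887 in healthy joints. Hspb2 did not pass (0.60 ± 0.29, adjusted p = 0.096).

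Of 6 genes of eicosanoid synthesis, the inducible cyclooxygenase gene Ptgs2 rose, the lipoxygenase genes Alox5 and Alox15 fell, and 3 did not pass, among them Ptgs1 (-0.33 ± 0.15). Ptgs2 had 11.7, 47.0 and 132 normalized counts in siNEG joints, against 2.68, 7.64 and 15.03 in healthy joints. Only 2 of 12 healthy samples lay above the negative control probes, so its increase is given as at least 2.55-fold (adjusted p = 5.0e-08), with 11 siNEG samples above every healthy one. Alox5, which starts leukotriene synthesis, had 104, 155 and 253 normalized counts in siNEG joints, against 154, 294 and 356 in healthy joints. All 12 siNEG samples were below the healthy median and 6 below the lowest healthy sample (-0.76 ± 0.16, adjusted p = 4.8e-05). Alox15, a lipoxygenase of eosinophils and macrophages, lay below the healthy median in 11 of 12 siNEG samples (-0.85 ± 0.28, adjusted p = 0.0090), and its call was lost with the muscle gene Myl2 as a covariate (adjusted p = 0.19). Of 9 eicosanoid receptor genes 2 rose, Ptgfr for prostaglandin F (1.19 ± 0.20) and Cysltr1 for cysteinyl leukotrienes (0.91 ± 0.21), and 2 fell, Ltb4r1 for leukotriene B4 (-0.44 ± 0.16) and Ptgir for prostacyclin (-0.36 ± 0.14). With Myl2 as a covariate neither of these 2 lower calls held (adjusted p = 0.058 for Ltb4r1 and 0.29 for Ptgir). The Ptgir call was also lost without 1 of 3 single samples (adjusted p of up to 0.055 without siNEG replicate 2). The list medians were -0.41 for 6 synthesis genes and -0.06 for the receptors.

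Of 7 genes of the interleukin-1 family and its receptors, 3 rose and 1 fell (median log2 fold change 0.37). That share of higher genes is near the 37.8% over all genes. Il1b, which encodes interleukin-1 beta, had 149, 235 and 804 normalized counts in siNEG joints, against 75.6, 172 and 208 in healthy joints. The highest siNEG sample was replicate 9, and 8 siNEG samples lay above every healthy one (log2 fold change 0.77 ± 0.22 SE, adjusted p = 0.00093). Without siNEG replicate 9 the log2 fold change was 0.50 (adjusted p = 0.0068). The interleukin-1 receptor gene Il1r1 rose by 0.66 ± 0.14 and its accessory chain gene Il1rap by 0.37 ± 0.09 (under housekeeping scaling only), while Il18rap, a chain of the interleukin-18 receptor, fell by 0.55 on the log2 scale (SE 0.16). Il1a (-0.18 ± 0.18), Il18 (0.15 ± 0.14) and the antagonist Il1rn (0.38 ± 0.16, adjusted p = 0.052) did not pass. Il6 was at least 1.43-fold higher (adjusted p = 0.00016), with 10.1, 25.8 and 71.7 normalized counts in siNEG joints, against 4.08, 13.7 and 19.6 in healthy joints, where 5 of 12 samples were above the negative control probes. Stat3, which carries interleukin-6 signals, rose by 0.48 ± 0.08 (adjusted p = 6.8e-05).

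Of 4 genes of the tumour necrosis factor superfamily, 1 fell and none rose (median log2 fold change -0.15). Tnf had 32.03, 62.2 and 101 normalized counts in siNEG joints, against 24.8, 51.7 and 90.8 in healthy joints, and did not pass (0.17 ± 0.21, adjusted p = 0.44). Ltb, which encodes lymphotoxin beta of lymphocytes, had 64.3, 122 and 205 normalized counts in siNEG joints, against 143, 224 and 300 in healthy joints, with 9 siNEG samples below the lowest healthy one (-0.82 ± 0.15, adjusted p = 1.4e-05). Of 12 transducers between TNF or toll-like receptors and NF-kB, 3 were called higher and 0 lower, with a median of 0.08 on the log2 scale. The 3 were Relb (0.31 ± 0.11), Traf2 (0.29 ± 0.07) and Myd88 (0.42 ± 0.13), and all 3 calls were lost under each of the other 3 scalings described below. Without single samples Traf2 and Relb stayed called, while 6 such fits ended the call of Myd88 (adjusted p of up to 0.064 without siNEG replicate 10). The NF-kB subunit gene Rela was at 0.07 ± 0.07. Nos2, the inducible nitric oxide synthase gene, was above the negative control probes in 5 of 12 samples of either group and was not called (adjusted p = 0.34).

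Of 12 toll-like and NOD-like receptor genes, 3 were called higher and none lower, with a median log2 fold change of 0.36. Tlr1 (0.59 ± 0.15, adjusted p = 0.0083) kept its call under every scaling, whereas Tlr6 (0.41 ± 0.14) and Nod1 (0.45 ± 0.09) were called under housekeeping scaling only. The inflammasome sensor gene Nlrp3 was at -0.09 ± 0.13 and did not pass.

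Complement is a cascade of plasma proteases, and 6 of its 14 tested genes rose while none fell (median log2 fold change 0.37), a share near the 37.8% called higher over all genes. Masp1, a protease of the lectin pathway, had 15.6, 40.4 and 74.1 normalized counts in siNEG joints, against 3.73, 6.39 and 12.4 in healthy joints. The groups did not overlap, but 1 of 12 healthy samples lay above the negative control probes, so the increase is given as at least 2.11-fold (adjusted p = 8.8e-09). C2, a part of the C3 convertase, had 152, 272 and 458 normalized counts in siNEG joints, against 37.5, 79.3 and 154 in healthy joints, and 11 siNEG samples exceeded every healthy one (1.82 ± 0.20, adjusted p = 2.5e-08). Cfb, the alternative pathway protease gene, rose by 1.68 ± 0.38, the C3a receptor gene C3ar1 by 1.49 ± 0.38, and the classical pathway protease genes C1ra and C1s by 1.02 ± 0.22 and 0.99 ± 0.24. The C1q chains C1qa and C1qb, C3, C4a and C7 did not pass.

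Growth factor genes of the transforming growth factor beta family split by member. Tgfb3 had 285, 420 and 743 normalized counts in siNEG joints, against 70.8, 169 and 258 in healthy joints, with no overlap (2.82-fold higher, SE 0.19 on the log2 scale, adjusted p = 7.6e-06). Tgfb1, the isoform abundant in leukocytes and platelets, was lower, with 1075, 1232 and 1622 normalized counts in siNEG joints, against 800, 1725 and 2098 in healthy joints (-0.34 ± 0.12, adjusted p = 0.0079, and 0.20 with Myl2 as a covariate). Flt1, which encodes a receptor for vascular endothelial growth factors, rose by 0.94 ± 0.14 (adjusted p = 3.3e-07). Tgfb2, Tgfbr1 and Pdgfa were called higher under housekeeping scaling only, which left 2 higher and 1 lower of the 7 tested under all scalings. Tgfbr1 also lost its call without siNEG replicate 2 (adjusted p = 0.055) or 5 (adjusted p = 0.051).

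On the leukocyte marker lists, the called genes were lower in siNEG joints, with the exception of Arg1. This holds for these lists only, since the receptor genes C3ar1, Cysltr1, Tlr1 and Ccr2 on other lists were called higher. Of 8 macrophage markers, a list without C1qa and C1qb, 5 fell and 1 rose, with a median log2 fold change of -0.44. Over all tested genes, 12.2% were called lower. Retnla, a marker of alternatively activated macrophages, had 11.1, 29.3 and 70.5 normalized counts in siNEG joints, against 19.0, 84.0 and 449 in healthy joints. All 12 siNEG samples lay below the healthy median and 4 below the lowest healthy sample, so Retnla was 4.85-fold lower (-2.28 ± 0.45, adjusted p = 4.0e-05). Arg1, another gene of that macrophage state, went the opposite way, with 20.8, 82.7 and 636 normalized counts in siNEG joints, against 2.68, 15.1 and 67.1 in healthy joints. It was at least 3.35-fold higher (adjusted p = 0.00016), since 6 of 12 healthy samples lay above the negative control probes. Its highest sample was siNEG replicate 9, without which the fitted log2 fold change was 1.88 in place of 2.49 (adjusted p = 0.0017). Chi3l3, a chitinase-like gene now named Chil3, had 2854, 4796 and 6941 normalized counts in siNEG joints, against 4476, 8321 and 13040 in healthy joints (-0.71 ± 0.20, adjusted p = 0.015). The scavenger receptor gene Cd163 (-0.68 ± 0.20), the mannose receptor gene Mrc1 (-0.33 ± 0.11) and Tyrobp, the adaptor of myeloid receptors (-0.54 ± 0.14, adjusted p = 0.085 with Myl2 as a covariate), were also lower, while Trem2 (0.11 ± 0.19) and the integrin gene Itgb2 (-0.21 ± 0.12) did not pass.

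The marker lists were also summed per sample, and the ranges of the groups overlapped for each. These sums are unweighted. Their largest part came from Tyrobp for macrophages, Mmp9 for granulocytes and H2-Eb1 for lymphocytes and antigen presentation. Of the 7 macrophage markers that name the cell type, C1qa and C1qb among them, 3 were called lower and none higher. These 7 markers summed to 10450, 13000 and 18540 normalized counts in siNEG joints, against 8383, 15190 and 21050 in healthy joints. The 3 granulocyte markers summed to 2230, 3265 and 5052 in siNEG joints, against 2088, 4666 and 5578 in healthy joints. Of 4 genes on the wider granulocyte list 3 fell, Cxcr2, Ccr3 and Alox15, which were also counted on lists above. With Myl2 as a covariate the Ccr3 and Alox15 calls were lost, and without Gusb in the scaling that of Cxcr2. The lymphocyte and antigen presentation markers summed to 976, 1187 and 1609 in siNEG joints, against 746, 1601 and 2327 in healthy joints. Of 5 genes on the wider list 3 fell, Ltb, Ccr7 and H2-Eb1. The H2-Eb1 call was lost in 12 of 24 fits without a single sample. These counts stand beside 12.2% called lower over all tested genes. In bulk samples fewer cells of a type and less RNA per cell cannot be told apart. Bcl2l1, which encodes an inhibitor of apoptosis, had 347, 439 and 570 normalized counts in siNEG joints, against 501, 725 and 885 in healthy joints, below the healthy median in 12 of 12 samples (-0.66 ± 0.11, adjusted p = 7.6e-06).

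Muscle and fat markers differed between samples and are given beside these results. Myl2, a slow and cardiac muscle myosin gene, had 64.3, 265 and 915 normalized counts in siNEG joints, against 10.7, 49.2 and 788 in healthy joints, and did not pass (1.31 ± 0.65, adjusted p = 0.11). The highest healthy sample was replicate 5, which was also the highest healthy sample for Ccl2, Ccl7, Cxcl10, Ifi44, Ifit3 and Irf7, and without it Myl2 passed (log2 fold change 2.01, adjusted p = 0.015). With log2 Myl2 as a covariate 101 genes were called, 80 higher and 21 lower, and Ccl2 was at 3.11, Mmp3 at 2.87 and Hspb1 at 2.65 on the log2 scale. That fit ended 9 of the 24 lower calls, those of Alox15 (-0.44, adjusted p = 0.19), Ccr3, H2-Eb1, Ltb4r1, Map3k1, Max, Ptgir, Tgfb1 (-0.17, adjusted p = 0.20) and Tyrobp (-0.30, adjusted p = 0.085). It also ended the higher calls of Mapk8 and Tgfbr1. Among the genes examined singly, C7 became a lower call in it (-0.90, adjusted p = 0.026). Higher calls gained there were Cd86 (0.58, adjusted p = 0.00064), Il1rn (0.54, adjusted p = 0.0098), Pla2g4a, Rela and Tlr2. Cfd, the adipocyte gene for factor D, had 661, 1574 and 3061 normalized counts in siNEG joints, against 320.5, 2761 and 5531 in healthy joints (-0.71 ± 0.38, adjusted p = 0.067). The part of fat content in the results was not tested.

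The spread within each group was wide. Among the 74 higher genes, siNEG replicate 10 was the highest siNEG sample for 22 and replicate 2 for 18, while replicate 12 was the lowest for 21. In the healthy group, replicate 7 was the highest for 25 of these genes and replicate 5 for 23. Over the 98 called genes, each signed by its direction and centred on healthy joints, the median change ran from 0.39 in siNEG replicate 12 to 1.31 in siNEG replicate 2 on the log2 scale. Replicate 10 was also the siNEG sample with the lowest total count, 44738. Without healthy replicate 5 there were 103 calls, 76 higher and 27 lower.

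How the calls split between higher and lower depended on the scaling. Trimmed mean of M-values (TMM) scaling called 51 genes higher (26%) and 62 lower (31.6%), shifting log2 fold changes by a median of -0.24. DESeq2 size factors called 51 and 59 with a shift of -0.22, and total-count scaling 51 and 51 with a shift of -0.20. The same 51 higher and 24 lower genes were called under all 4 scalings, and no gene was called in opposite directions. For the lower genes this is no test, because each alternative scaling shifted log2 fold changes downward and could hardly end a lower call. The 51 include all 29 genes with a fitted log2 increase of at least 1 that were measured in both groups. The other 23 higher calls, such as Nod1, Relb and Tgfb2, were made under housekeeping scaling alone. The housekeeping genes shifted relative to each other, with mean log2 normalized counts in siNEG minus healthy joints of 0.34 for Gusb, 0.26 for Gapdh, 0.21 for Pgk1, -0.14 for Cltc, -0.21 for Tubb5 and -0.45 for Hprt. Leaving single housekeeping genes out of the scaling moved calls of either direction. Without Gusb, the lower calls of Cxcr2, Mrc1 and Mknk1 were among those lost (edgeR adjusted p = 0.063, 0.070 and 0.135). Without Hprt, the higher calls of Irf1, Tlr6 and Relb were among those lost. What shifted the housekeeping genes was not tested.

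**Figure D3:**
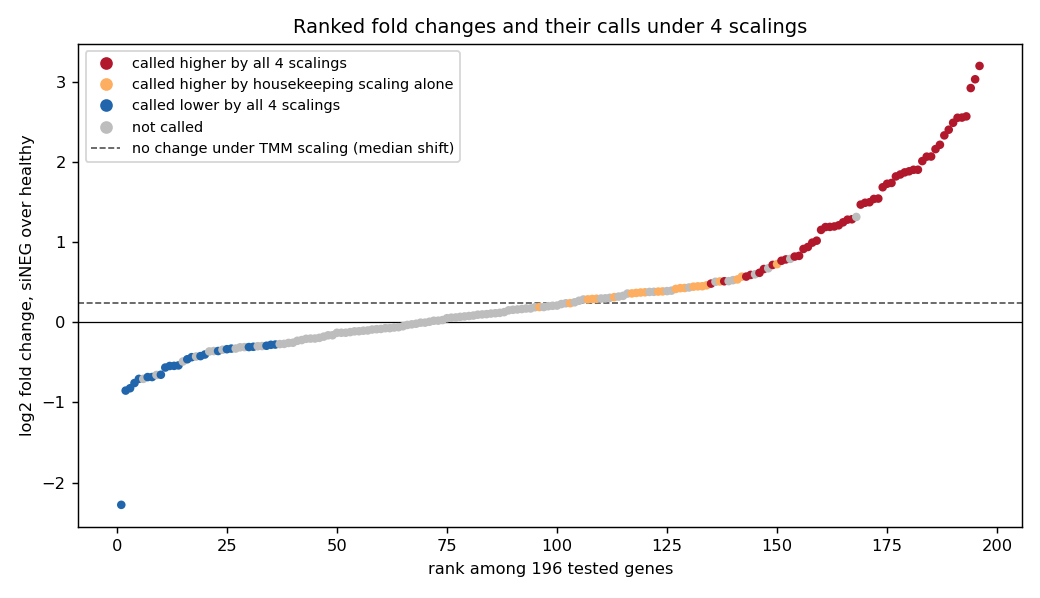
Log2 fold change of siNEG over healthy joints (y axis) against rank for the 196 tested genes, coloured by whether a call held under all 4 scalings. The dashed line marks the housekeeping-scaled value that TMM scaling would place at 0. The 23 calls made under housekeeping scaling alone (orange) lie at under 1, the highest being Tgfb2 at 0.72.

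Set directly against loaded joints without treatment, siNEG joints differed in few genes. This comparison asks what the particle and its control siRNA add to loading. Of 196 genes 3 were called (1.53%), 2 higher and 1 lower, and 16 had an unadjusted p under 0.05 in edgeR's test. Ccl19 had 102, 173 and 336 normalized counts in siNEG joints, against 81.9, 115 and 157 in loaded untreated joints, and 11 of 12 siNEG samples lay above the untreated median (log2 difference 0.66 ± 0.16 SE, adjusted p = 0.035). In 11 of 24 fits without a single sample Ccl19 was not called. Traf2, a signal transducer of TNF receptors, had 102, 115 and 132 normalized counts in siNEG joints, against 76.1, 92.8 and 111 in loaded untreated joints, and 12 of 12 siNEG samples were above the untreated median (0.31 ± 0.06, adjusted p = 0.023). Under TMM scaling neither passed (adjusted p = 0.19 for both) and 0 genes were called by edgeR, with 20 at an unadjusted p under 0.05. Among the 98 genes called between siNEG and healthy joints, 2 passed in this direct comparison, and the median absolute log2 difference from untreated was 0.13. The highest absolute difference among the 98 was that of Retnla, at 0.77 ± 0.34 (adjusted p = 0.72).

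Leading genes can be set side by side across the loaded groups, which all share the 12 healthy samples. Against healthy joints Hspb1 was at 3.03 ± 0.39 in siNEG, 2.02 ± 0.52 in siMMP13 and 2.62 ± 0.43 in loaded untreated joints (log2 fold change ± SE). Mmp3 was at 2.55 ± 0.56 in siNEG, 2.29 ± 0.62 in siMMP13 and 2.32 ± 0.56 in loaded untreated joints. Ifi44 was at 2.55 ± 0.35 in siNEG, 2.04 ± 0.47 in siMMP13 and 2.26 ± 0.33 in loaded untreated joints. Il6 had fitted values of 1.25 ± 0.30 in siNEG, 0.93 ± 0.25 in siMMP13 and 0.66 ± 0.20 in loaded untreated joints, and its difference between siNEG and untreated joints was 0.58 ± 0.26 (adjusted p = 0.51). C7 of the terminal complement complex, picked after its values were seen, was at -0.27 ± 0.34 in siNEG, -0.61 in siMMP13 and -1.33 in loaded untreated joints, with a direct siNEG minus untreated difference of 1.06 ± 0.37 that did not pass (adjusted p = 0.28). Myl2 likewise differed by 1.71 ± 0.57 without passing (adjusted p = 0.50).

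**Figure D4:**
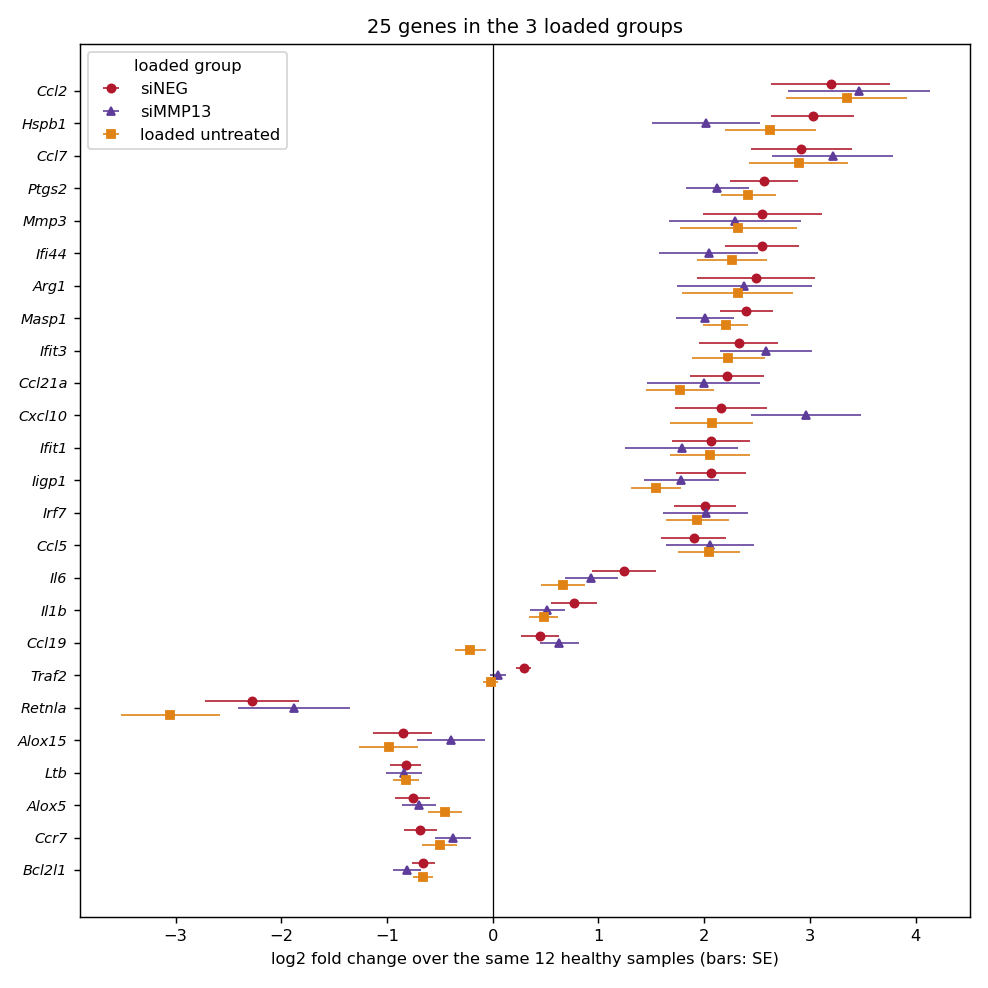
Fitted log2 fold change over the same 12 healthy samples (x axis, bars SE) of 25 genes in siNEG (red), siMMP13 (purple) and loaded untreated (orange) joints, 12 samples each. Values for Ptgs2, Arg1, Masp1 and Il6 rest on healthy samples near background, and only Ccl19 and Traf2 of these genes passed between siNEG and loaded untreated joints.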

How the data were processed

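The authors deposited raw counts for each of 268 probes, and no normalization is given in the sources used here (248 endogenous genes, 6 housekeeping genes, 6 positive and 8 negative controls). RNA came from equal masses of synovium and of cartilage with subchondral bone, per the labels' protocols. No count was 0. Names were checked against RefSeq, where 247 of 254 gene probes matched a current symbol and 7 a synonym. Counts were scaled by the housekeeping geometric mean (Cltc, Gapdh, Gusb, Hprt, Pgk1, Tubb5), and genes with over 20 counts in at least 12 of 48 samples were kept. The quasi-likelihood test of edgeR 4.0.16 (R 4.3.3) was fitted to all 4 groups, with Benjamini-Hochberg adjustment over 196 genes and a threshold of 0.05. SE values come from log2(normalized count + 1) of the 12 samples per group. Detection above the negative controls meant a count over that lane's control mean by more than 2 SD. Where at most 6 of 12 samples of the lower group did so, the fold is a bound, with values raised to that limit. The scripts were tested on simulated data.

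Members, gene lists and tests were chosen with earlier results of these data known. The genes named are called genes with the 15 largest changes in each direction, tested members of the role lists, 9 fixed inflammation genes, genes called against untreated joints, and the housekeeping genes. Some genes that the rule would name are not reported here. Alternatives were TMM scaling, DESeq2 1.42.0 size factors and its Wald test, total-count scaling, leaving out housekeeping genes or samples, other filters, background subtraction, limma 3.58.1 with pseudocounts of 1 and 10 or array weights, 2-group fits, a Myl2 covariate and a replicate block. A fit without 4 libraries whose housekeeping genes departed most from their group was added after the data were seen.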

Additional observations from a re-analysis of the deposited data

Results flagged for a closer look

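Ccl19, a chemokine of dendritic cells and T cells, differed between loaded siNEG and loaded untreated joints by 0.66 on the log2 scale in the direct edgeR test (adjusted p = 0.035, higher in 11 of 12 siNEG samples than the untreated median). Traf2, a transducer of TNF receptors, differed by 0.31 (adjusted p = 0.023, 12 of 12 samples). Both are given because their change relative to healthy joints differed between 2 loaded groups. The Ccl19 call was lost in 11 of 24 fits without a single sample and the Traf2 call in 0 of 24. Neither difference passed under TMM scaling, and their cause was not tested.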

How the results depend on the processing

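Between siNEG and healthy joints the number of called genes ran from 90 to 129 over 20 alternatives, against 98 as reported, with 51 to 88 higher and 17 to 62 lower. Leaving out single samples gave 91 calls (without siNEG replicate 2) to 104 (without siNEG replicate 12). With a replicate block 96 genes were called between siNEG and healthy joints and 2 between siNEG and untreated joints. Same-numbered samples deviated together in 5 of 12 pairs (r over 0.1, range -0.28 to 0.51). No value for differently numbered samples stands beside these, so they cannot decide whether the numbers pair samples. A fit that dropped 4 libraries for their unusual housekeeping genes (1 healthy, 3 siMMP13) called 118. Between siNEG and untreated joints edgeR called 0 genes under TMM, total-count and DESeq2 size factor scaling and when Gusb or Tubb5 was left out of the scaling (20, 20, 21, 13 and 15 at an unadjusted p under 0.05), while limma array weights called 7 and the DESeq2 Wald test 3. Leaving out single samples there gave 1 (without siNEG replicate 4) to 4 (without untreated replicate 7). The cause was not tested.

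Among 2727 results of single genes under alternatives other than left-out samples, 129 lost a call, 113 gained one and 6 reversed. A reversal was counted only where the gene was called in at least 1 of the fits compared. The other 2479 kept their side of the threshold, but genes called in neither fit could change sign among them. Irf3, for example, ran from -0.35 to 0.06 on the log2 scale. Nfkb1, not called under housekeeping scaling, was called lower by edgeR at -0.23 under TMM scaling (adjusted p = 0.0099). Under DESeq2 size factors it was at -0.21 (adjusted p = 0.017). The other reversed values were small and not called. They were Rac1 at -0.069, -0.049 and -0.034 under TMM, DESeq2 size factors and total counts, and Hmgn1 at -0.0051 under TMM. Of the called genes examined, 15 lost their call without some single sample, the 3 most often Ccr2 and H2-Eb1 (12 of 24 samples each) and Hmgn1 (11). Genes near the 20 count filter lie close to the negative controls, whose limit ran from 7.7 to 20.1 counts in siNEG and 9.67 to 22.9 in healthy samples, which limits precision for Cxcl1, Cxcl2, Cxcl3, Il6, Nos2 and Ptgs2.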

Other observations

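Intracellular signalling genes are given by group. Of 16 MAP kinase cascade genes, 2 fell, Mknk1 (log2 fold change -0.28 ± 0.06 SE) and Map3k1 (-0.28 ± 0.10), and 1 rose, Mapk8 (0.28 ± 0.08, a call made under housekeeping scaling only), with a list median of -0.05 against 0.20 for all genes. The Map3k1 call was lost without any 1 of 7 samples (adjusted p of up to 0.070 without siNEG replicate 5). With Myl2 as a covariate the calls of Map3k1 (adjusted p = 0.37) and Mapk8 (adjusted p = 0.065) were lost. Of 13 transcription factor genes, 5 were called higher and 1 lower, a share of higher genes near the 37.8% over all genes. Fos, a part of the AP-1 factor, rose by 0.78 ± 0.24, Tcf4 by 0.82 ± 0.13 and Cebpb, a regulator of inflammatory genes, by 0.51 ± 0.09, each in all 4 scalings, and Max, the partner of MYC, was lower (-0.29 ± 0.09, adjusted p = 0.077 with Myl2 as a covariate). Jun was at 0.79 ± 0.34 and did not pass (adjusted p = 0.067). Cebpb had 617, 747 and 1014 normalized counts (lowest, median, highest) in siNEG joints, against 415, 567 and 656 in healthy joints, with 11 siNEG samples above every healthy one.

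Among cytoskeletal regulators, the focal adhesion kinase gene Ptk2 rose by 0.62 ± 0.10 (adjusted p = 1.7e-06), with 10 siNEG samples above every healthy one, and it was the only 1 of 8 called under all 4 scalings. The phospholipase C gene Plcb1 rose by 0.57 ± 0.17. The nuclear alarmin genes Hmgb1 (-0.42 ± 0.10) and Hmgb2 (-0.54 ± 0.25) were lower, Hmgb1 below the healthy median in 12 of 12 siNEG samples. Hmgb2 lost its call without healthy replicate 10 (adjusted p = 0.066) and without healthy replicate 1 (adjusted p = 0.058). Of 7 genes of the NRF2 oxidative stress pathway, only Maff was called, at 0.51 ± 0.17 and under housekeeping scaling only, and Nfe2l2, which encodes NRF2, was at -0.03 ± 0.08. None of the 52 genes below the count filter lay above the negative controls in more than 5 of 12 siNEG samples.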
